A study of Homo sapiens with 24 samples.

Results

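A set of 10 genes of the S100 family other than S100A8 and S100A9 were examined for chromatin occupancy by the S100A8 and S100A9 proteins in MCF-10A–ER-Src cells. The 10 genes are S100A2, S100A4, S100A6, S100A7, S100A10, S100A11, S100A13, S100A14, S100A16, and S100P, chosen by name out of the 20098 protein-coding genes that GENCODE 44, lifted to GRCh37 (hg19), annotates on chromosomes 1 to 22 and X. MCF-10A–ER-Src is a non-transformed human mammary epithelial line that carries v-Src fused to the ligand-binding domain of the estrogen receptor, and 4-hydroxytamoxifen (TAM) switches on v-Src and transforms the cells. All cells stably expressed S100A8 or S100A9 from a retrovirus, with a Flag tag at the C terminus, in addition to the endogenous proteins. They received 1 μM TAM or the ethanol vehicle (EtOH) for 24 hours and were cross-linked in 2 steps, protein to protein and then, by formaldehyde, protein to DNA, before ChIP (chromatin immunoprecipitation) with a Flag antibody. Peak lists of 11 libraries were used. Of the 5 EtOH libraries 2 were from S100A8-Flag cells and 3 from S100A9-Flag cells, and of the 6 TAM libraries each protein had 3. The labels number the libraries as replicates of these engineered lines, and the paper's methods call the replicates biological. The error below is thus the spread between replicates of 1 line per protein.

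S100 proteins are small calcium-binding proteins of the EF-hand type that mostly work as dimers and change the activity of partner proteins, inside the cell and, after release, outside it. Most of the human genes lie side by side on the long arm of chromosome 1, next to genes of the epidermal differentiation complex. Several are abundant in epithelial cells, and their expression changes in many carcinomas. Of the 10 genes, 9 are on chromosome 1 and S100P is on chromosome 4.

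A peak is a region where a library's ChIP signal exceeds that of its own chromatin input, and its q value is the significance after correction for multiple testing. Peaks with q of at most 1e-07 were used. A peak was assigned to the locus of a gene if its summit, the position of the strongest signal, lay in the gene body or within 10 kb of it. It was assigned to the promoter if the summit lay no more than 1500 bp upstream or 250 bp downstream from a transcription start site (TSS) of a protein-coding transcript of the gene. The lists held between 1853 and 4609 such peaks per EtOH library and between 21518 and 40735 per TAM library. Read numbers are not given, so the depth of each library is unknown. A lower depth and weaker binding cannot be told apart where a library has fewer peaks. S100A9-Flag EtOH replicate 1 stood apart at these genes: its list of 3595 peaks had 3 at the S100 genes, all at the S100A6 locus and none at a promoter, whereas the other 4 EtOH libraries had 3 to 8 peaks at the promoters.

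Each gene's promoter site called in the most libraries, and any other site called in at least 8 libraries, are described below. The sequences of the 5 of these 12 sites with a consensus motif close to the summit were read from the hg19 genome and are shown here. Motifs of ETS (CGGAAG), KLF/SP1 (CCCCGCCC), AP-1 (TGACTCA), CREB (TGACGTCA), C/EBP (TTGCNNAA or TTACNNAA), STAT3 (TTCNNNGAA), and CTCF were searched on both strands within 50 bp of the summit of the site's highest-ranked peak. All sequences are on the plus strand, whereas these 5 sites belong to genes on the minus strand, and capitals mark the motif.
S100A2 promoter, chr1:153539185-153539214, AP-1: tccaggcccagatgcccaggcagTGACTCA
S100A10 promoter, chr1:151964935-151964998, AP-1: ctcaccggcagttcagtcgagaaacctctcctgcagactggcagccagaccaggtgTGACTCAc
S100A11 promoter, chr1:152009495-152009595, C/EBP, ETS, and KLF/SP1 in this order: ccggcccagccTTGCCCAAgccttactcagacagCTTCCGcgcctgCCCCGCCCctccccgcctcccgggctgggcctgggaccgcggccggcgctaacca
S100A4 promoter, chr1:153517583-153517683, KLF/SP1: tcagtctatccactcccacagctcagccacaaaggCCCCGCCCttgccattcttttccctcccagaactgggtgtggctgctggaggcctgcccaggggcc
Downstream of S100A6, chr1:153499702-153499802, C/EBP: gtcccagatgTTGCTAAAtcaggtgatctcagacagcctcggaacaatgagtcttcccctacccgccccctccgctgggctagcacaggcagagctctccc

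The S100 genes had more peaks in TAM than in EtOH. In all, 217 distinct peaks had a summit at 1 or more of the 10 loci, 37 of them in the 5 EtOH libraries and 180 in the 6 TAM libraries, and 117 lay at a promoter. Differences given below are TAM minus EtOH within each protein, averaged over the 2 proteins. The number of peaks at a locus was compared between treatments by an exact permutation test in which the libraries of each protein were rearranged between EtOH and TAM (200 arrangements, two-sided, smallest possible p = 0.01). P values were adjusted by the Benjamini-Hochberg method over the 16962 protein-coding genes with a peak in at least 1 library. S100A6, S100A10, S100A13, S100A14, and S100A16 were higher in TAM, each with an adjusted p of 0.0465 in the exact permutation test, which was the smallest value of any gene. Because no p can be below 0.01, an adjusted p of 0.05 is reached only where at least 20% of all genes tested are at that p, so that these calls depend on the other genes as well. These are 5 of 10 genes, beside 21.5% of all genes tested. At the same 5 genes every TAM library had more peaks than every EtOH library, as at 18.6% of all genes tested. The median difference was 3.46 peaks per library over the 10 genes and 1.17 over all genes tested. The number of peaks was itself higher in both treatments. Its median over the 10 genes was 1 per library in EtOH and 4.92 in TAM, beside 0.2 and 1.33 over all genes tested. These loci overlap, and 63 of the 217 peaks were counted at more than 1 of the genes. At an unadjusted p of at most 0.05, 7 of the 10 genes were higher in TAM (exact permutation test), beside 47.3% of all genes tested. The 5 calls rest on the full set of libraries: without any 1 library the smallest possible p rose to between 0.0167 and 0.025, and no gene passed, with 6 to 8 of the 10 genes at an unadjusted p of at most 0.05 (exact permutation test), beside 29.3% to 46.8% of all genes. Without S100A9-Flag EtOH replicate 1, 6 of the 10 and 30.5% of all genes had such a p, and the smallest adjusted p was 0.0845.

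**Figure D1:**
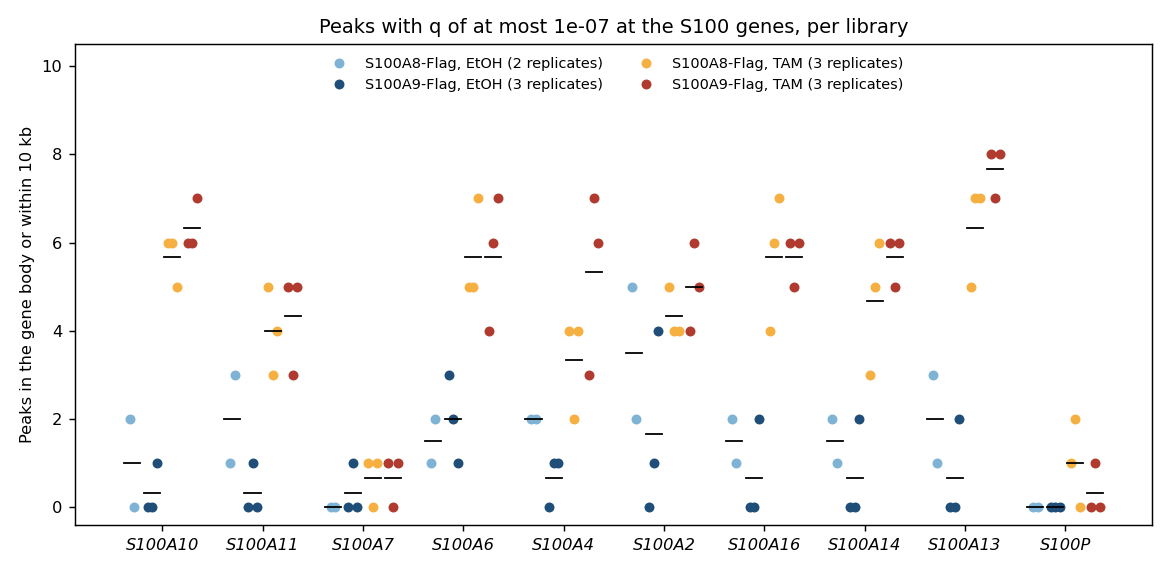
Number of peaks with q of at most 1e-07 in the gene body or within 10 kb of it, for each S100 gene (horizontal axis, in order along chromosome 1, then S100P) and each of the 11 libraries. Points are libraries, colors are conditions, and black lines are condition means. TAM libraries sit above EtOH libraries at S100A10, S100A6, S100A16, S100A14, and S100A13, and the groups overlap at the other genes.

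S100A10 encodes p11, which binds annexin A2 at membranes and is unusual in the family in that it does not need calcium to do so. Its gene lies at chr1:151955391-151966335 on the minus strand. S100A10 had 2 and 0 peaks in the S100A8-Flag EtOH libraries, 0, 0, and 1 in the S100A9-Flag EtOH libraries, and 5 to 7 in the TAM libraries (median 6). The 6 TAM libraries were all above the EtOH libraries, and the mean difference was 5.33 peaks, larger than at 98.3% of all genes tested. Over the 11 libraries together S100A10 also had more peaks than 97.5% of all genes tested. The peaks fell into 12 sites, where a site is a run of overlapping peaks of the 11 libraries, and 10 of these were called in TAM libraries only.

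The promoter site of S100A10 called most often, chr1:151964582-151965898, had a peak in 2 EtOH and all 6 TAM libraries. Its highest-ranked summit was in an intron, 69 bp downstream of the internal TSS at position 151965054. The sequence there, shown above, has an AP-1 motif. The fold enrichment over input was 13.2 and 6.79 in the EtOH libraries that called it, and in the TAM libraries it was 4.21 at the lowest and 14.8 at the highest, with a median of 10.7. The 3 other EtOH libraries had a weaker peak there that did not reach q of 1e-07. Ranked by fold enrichment among the peaks of its own library, the site stood between the 0.0510th and the 97.9th percentile in TAM. Its fold enrichment was thus among the highest in some TAM libraries and among the lowest in others. Percentiles describe a peak within its own list. The TAM lists are several times longer than the EtOH lists, and a list enters only if it called the site, so that percentiles of EtOH and TAM libraries are given side by side here and below and show no change. An AP-1 motif within 50 bp of the summit was found at 5 of the 12 S100A10 sites. Among sites of the whole genome called in at least 2 libraries of a condition, 19.4% had one, and 26.0% of those away from promoters. Only 6 of the 12 S100A10 sites meet that threshold, so that the count and these shares are not on the same footing.

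S100A11, a keratinocyte protein that binds annexin A1, lies at chr1:152004982-152020383 on the minus strand, with its annotated protein-coding TSS inside this interval at position 152009480. It had 1 and 3 peaks in the S100A8-Flag EtOH libraries, 0, 1, and 0 in the S100A9-Flag EtOH libraries, and 3 to 5 in the TAM libraries (median 4.5). One EtOH library reached the lowest TAM value. The mean difference of 3.00 peaks had an adjusted p of 0.0702 (exact permutation test) and did not pass the threshold.

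The S100A11 promoter site, chr1:152009004-152009718, was called in 2 EtOH and 5 TAM libraries. Its summit was 65 bp upstream of the coding TSS, and the summits of the 7 libraries lay within 46 bp of each other. The sequence around it has C/EBP, ETS, and KLF/SP1 motifs. Among the peaks of its own library it stood at the 18.9th percentile in S100A8-Flag EtOH replicate 2 and at the 2.35th in S100A9-Flag EtOH replicate 2. In the 5 TAM libraries that called it, it stood at the 83.3rd percentile at the lowest, with a median at the 98.0th and the highest at the 99.3rd. The fold enrichment was 7.14 and 7.31 in EtOH and 10.3 to 18.5 in TAM.

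**Figure D2:**
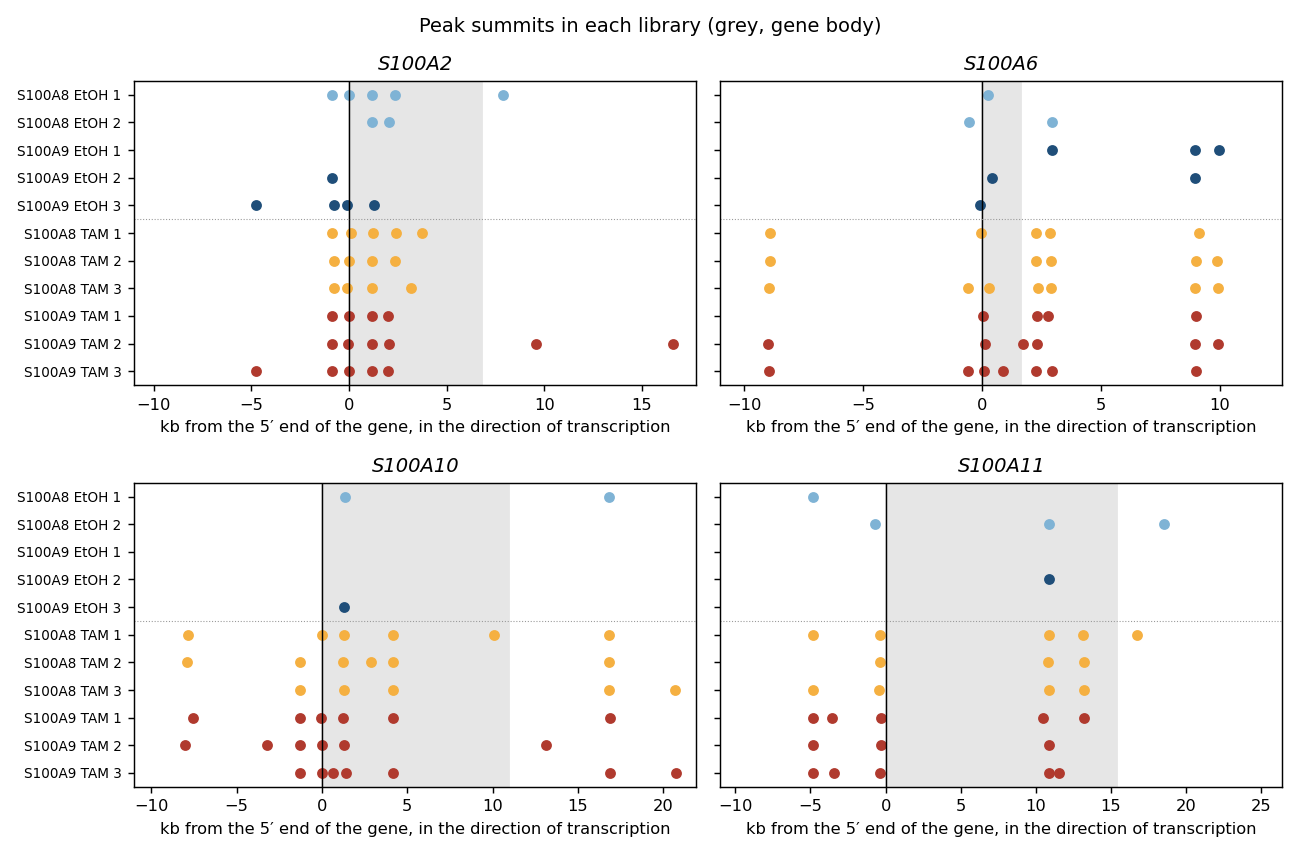
Summits of peaks with q of at most 1e-07 at S100A2, S100A6, S100A10, and S100A11, by distance in kb from the 5′ end of the gene, positive in the direction of transcription. Each row is a library, each point a peak, and gray marks the gene body. Summits of different libraries fall at the same few positions, and at S100A2 the positions near the 5′ end have points in both EtOH and TAM rows, whereas most positions at S100A10 have points in TAM rows only.

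S100A6, S100A4, and S100A2 lie next to each other on the minus strand, and within 10 kb of the 3 genes the EtOH libraries had 3 to 6 distinct peaks and the TAM libraries 9 to 13. S100A6 encodes calcyclin, which binds CACYBP and annexins, and lies at chr1:153507075-153508720. It had 1 and 2 peaks in the S100A8-Flag EtOH libraries, 3, 2, and 1 in the S100A9-Flag EtOH libraries, and 4 to 7 in the TAM libraries (median 5.5), with no overlap and a mean difference of 3.92. It was the only one of the 10 genes with a peak in every EtOH library. Its count includes the S100A4 promoter site, described below, which was called in 5 TAM and 0 EtOH libraries.

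The S100A6 promoter had a peak in 4 of 5 EtOH and 5 of 6 TAM libraries, with 2 of 2 and 2 of 3 for S100A8-Flag and 2 of 3 and 3 of 3 for S100A9-Flag. The share of libraries was lower in TAM with S100A8-Flag and higher with S100A9-Flag, and the averaged difference was 0.00 (unadjusted p = 1, exact permutation test). The promoter site called most often, chr1:153508199-153509099, had 3 EtOH and 5 TAM calls, and its summit was in a UTR exon, 41 bp downstream of a TSS. It stood between the 22.6th and 36.4th percentile in EtOH and between the 5.62nd and 80.7th in TAM. A site on the 3′ side of the gene, at chr1:153499464-153499864, was intergenic and 8715 bp downstream of the nearest S100A6 TSS, and had a peak in 2 EtOH libraries, both of S100A9-Flag, and in all 6 TAM libraries. It stood at the 0.598th and 27.1st percentile in EtOH and had a median at the 85.2nd in TAM, and the sequence around its summit has a C/EBP motif. Another at chr1:153505287-153506819, 2707 bp downstream of an S100A6 TSS, also had 2 EtOH and 6 TAM calls. This site joins peaks with summits up to 696 bp apart, and it is also within 10 kb of S100A4.

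S100A4, known as metastasin, binds nonmuscle myosin and promotes cell motility. The gene, at chr1:153516089-153522612, had 2 peaks in each S100A8-Flag EtOH library, 0, 1, and 1 in the S100A9-Flag EtOH libraries, and 2 to 7 in the TAM libraries (median 4). The groups overlapped at 2 peaks, and the mean difference of 3.00 had an adjusted p of 0.0745 (exact permutation test). Of its 32 peaks, 24 were also counted at S100A6. In contrast to S100A6, the S100A4 promoter was called in 0 of 5 EtOH and 5 of 6 TAM libraries. Its site, chr1:153517351-153517984, had a summit in an intron, 94 bp upstream of the nearest S100A4 TSS of a coding transcript, with a KLF/SP1 motif. The fold enrichment in the 5 TAM libraries was 11.3, 10.3, and 7.82 for S100A8-Flag and 8.45 and 8.30 for S100A9-Flag. In 2 EtOH libraries a weaker peak lay there that did not reach q of 1e-07.

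S100A2, an epithelial S100 protein that binds p53, lies at chr1:153533584-153540366. It had 5 and 2 peaks in the S100A8-Flag EtOH libraries, 0, 1, and 4 in the S100A9-Flag EtOH libraries, and 4 to 6 in the TAM libraries (median 4.5). The groups overlapped, and the mean difference of 2.08 peaks had an adjusted p of 0.169 (exact permutation test). Its promoter was called in 4 of 5 EtOH and all 6 TAM libraries.

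Both S100A2 promoter sites described here were called in 3 EtOH and 6 TAM libraries, the highest number of libraries at any of these genes. The first, chr1:153538923-153539458, had its summit in a UTR exon 31 bp downstream of the TSS at position 153539231, and 2 AP-1 motifs lie within 50 bp of it, 1 of which is shown above. The summits of its 9 libraries lay within 109 bp. It stood at the 22.0th, 36.9th, and 82.7th percentile in EtOH and had a median at the 75.2nd in TAM. The other, chr1:153540055-153541499, joins peaks at the 5′ end of the gene with peaks upstream of it, and its highest-ranked summit was 871 bp upstream of the 5′ end. It stood at the 97.1st, 40.4th, and 77.7th percentile in EtOH, and in TAM its median was at the 85.5th and its highest value at the 99.0th.

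**Figure D3:**
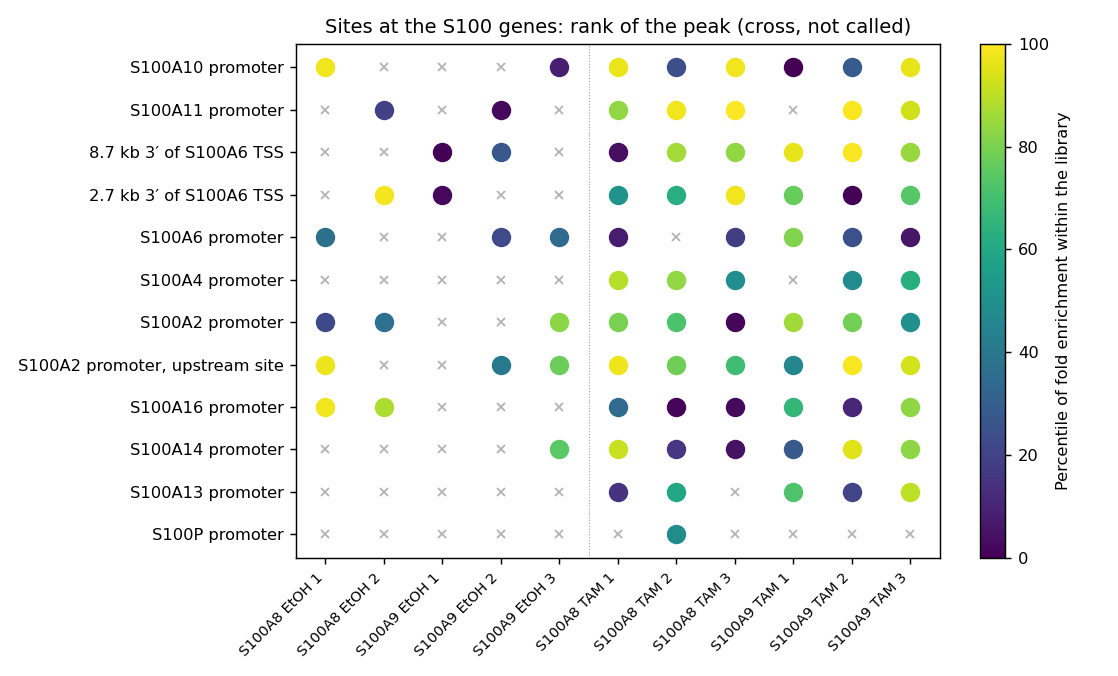
The 12 sites described in the text (vertical axis) in the 11 libraries (horizontal axis). Color is the percentile of the site's strongest peak by fold enrichment within that library, and a gray cross means no peak with q of at most 1e-07. The percentile of a site varies widely between the TAM libraries, as at the S100A10 and S100A16 promoters, and both S100A2 promoter sites have calls in 3 EtOH and 6 TAM libraries.

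S100A16, S100A14, and S100A13 form another group on the minus strand, and most of their peaks are the same peaks. All 36 peaks at S100A14 were also counted at S100A16 and S100A13, which is 92.3% of the 39 peaks at S100A16 and 75.0% of the 48 at S100A13. Their 3 calls above are therefore not separate results. Within 10 kb of the 3 genes there were 3, 1, 0, 0, and 2 distinct peaks in the EtOH libraries and 6 to 8 in the TAM libraries (median 8).

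S100A16 is a widely expressed member of the family, at chr1:153579362-153585621. It had 2 and 1 peaks in the S100A8-Flag EtOH libraries, 0, 0, and 2 in the S100A9-Flag EtOH libraries, and 4 to 7 in the TAM libraries (median 6), a mean difference of 4.58. Its promoter site, chr1:153581109-153582156, was called in both S100A8-Flag EtOH libraries, in none of the S100A9-Flag EtOH libraries, and in all 6 TAM libraries. The summit was in a UTR exon, 388 bp downstream of the TSS at position 153581813 but within the window of another TSS. It stood at the 97.9th and 87.6th percentile of the EtOH lists, which held 4327 and 4609 peaks, and between the 0.786th and the 82.9th of the TAM lists. The fold enrichment was 13.1 and 10.4 in EtOH and 4.64 to 10.3 in TAM.

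S100A14, an epithelial member, at chr1:153586731-153589462, had 2 and 1 peaks in the S100A8-Flag EtOH libraries, 0, 0, and 2 in the S100A9-Flag EtOH libraries, and 3 to 6 in the TAM libraries (median 5.5), a mean difference of 4.08. Its promoter site, chr1:153588732-153589184, was called in S100A9-Flag EtOH replicate 3 and all 6 TAM libraries, with a summit in an intron 127 bp upstream of a TSS. It stood at the 74.3rd percentile in the EtOH library and between the 4.62nd and 95.2nd in TAM.

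S100A13 takes part in the release of FGF1 and interleukin-1α, which lack a signal peptide. The gene, at chr1:153591263-153603836, had 3 and 1 peaks in the S100A8-Flag EtOH libraries, 0, 0, and 2 in the S100A9-Flag EtOH libraries, and 5 to 8 in the TAM libraries (median 7). The mean difference of 5.67 was the largest of the 10 genes. It includes a site at chr1:153605865-153607091, called in 1 EtOH and 6 TAM libraries, that falls in a promoter window of CHTOP. The highest-ranked summit of that site was in an intron of CHTOP, 6174 bp upstream of the nearest S100A13 TSS. The S100A13 promoter was called in 0 of 5 EtOH and 5 of 6 TAM libraries, at the site chr1:153599677-153600254, which also falls in the promoter window of S100A1. The fold enrichment there was 6.57 and 8.21 for S100A8-Flag and 9.53, 7.27, and 11.7 for S100A9-Flag. When summits in the gene body alone were counted, the S100A13 difference was 0.833 peaks, in place of 5.67. Counted in this way the difference was 0.417 at S100A6 (unadjusted p = 0.48, exact permutation test), 0.833 at S100A14, 1.92 at S100A16, and 2.42 at S100A10, and none of the 10 genes passed after adjustment. Unadjusted, 7 of them had a p of at most 0.05, beside 28.8% of the genes with a peak in the gene body.

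S100A7 and S100P had few peaks. S100A7, or psoriasin, is an antimicrobial protein of keratinocytes. The gene, at chr1:153430220-153433127, had 1 peak in S100A9-Flag EtOH replicate 2 and none in the other EtOH libraries, and 0 or 1 in the TAM libraries. These peaks formed 1 site, 5284 bp upstream of the 5′ end, called in 1 EtOH and 4 TAM libraries, and no library called the promoter. S100P, which binds ezrin and the receptor RAGE, lies at chr4:6695605-6698897 on the plus strand. It had no peak in EtOH and 0 to 2 in TAM, and its promoter was called in S100A8-Flag TAM replicate 2 only, at chr4:6695391-6695532, 180 bp upstream of the TSS, with a fold enrichment of 7.63. The mean differences of 0.50 at S100A7 and 0.67 at S100P both had an adjusted p of 0.377 (exact permutation test).

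Promoters were then compared by whether a library called them at all. No gene passed at an adjusted p of 0.05 in the exact permutation test, which is 0% of the 12103 genes with a promoter peak and 0 of the 9 S100 genes with one. At an unadjusted p of at most 0.05, S100A4, S100A13, and S100A14 were called in a larger share of TAM libraries, 3 of these 9 genes, beside 18.4% of the 12103 genes. S100A2 and S100A6 had the promoters called most often in EtOH, each in 4 of 5 libraries. Counting a promoter as confident if at least 2 replicates of a condition called it, 3 of the 10 genes were confident in S100A8-Flag EtOH (S100A2, S100A6, and S100A16), where the share of all protein-coding genes was 4.54%. In S100A9-Flag EtOH 2 were confident (S100A2 and S100A6), beside 5.62% of all genes. In TAM the same 8 genes were confident with both proteins, all but S100A7 and S100P, beside 36.2% of all genes with S100A8-Flag and 42.4% with S100A9-Flag.

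The longer TAM lists may bear on all of these differences. The sign of the mean difference changed at most of these genes when the number of peaks at a locus was given per 10000 peaks of the library. On that scale 8 of 10 S100 genes had a lower mean in TAM than in EtOH, S100A10 and S100P being the exceptions, beside 41.2% of all genes tested. The 8 are not separate results, since S100A13, S100A14, and S100A16 share most of their peaks. The differences at these were small, at -0.35, -0.46, and -0.25. S100A7 had only 1 EtOH peak, in the list of 1853 peaks. S100A2 had a mean of 6.32 peaks per 10000 in EtOH and 1.75 in TAM, and S100A6 of 5.21 and 2.14. S100A10 had a mean of 1.52 in EtOH and 2.24 in TAM. At an unadjusted p of at most 0.05, 1 of the 10 genes (S100A2, p = 0.04, exact permutation test) was higher in EtOH per 10000 peaks, beside 4.29% of all genes tested. Taking both directions together, 1 of the 10 genes and 21.5% of all genes tested had such a p. Most genes with such a p were thus higher in TAM, and none of the 10 genes was. After adjustment 0% of all genes and none of the 10 passed, in either direction. With the 1853 peaks of lowest q value from each library, none of the 10 genes passed, and 1 of them, S100A11, had an unadjusted p of at most 0.05, as had 0.753% of the 8761 genes with such a peak (exact permutation test). S100A10, S100A11, and S100A6 then had differences of 1.25, 1.17, and 0.583 peaks per library, that of S100P was 0, and those of the other 6 genes were below 0. The part of the list length in the treatment difference was not tested further.

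**Figure D4:**
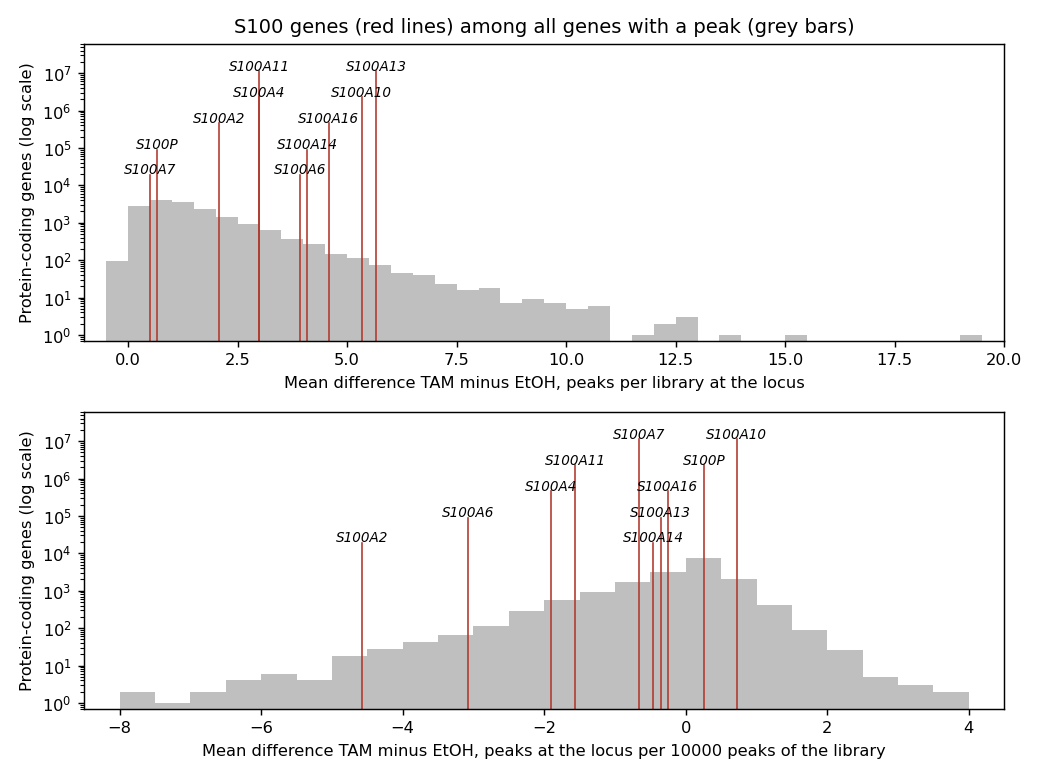
Mean TAM minus EtOH difference at each S100 gene (red lines, whose height carries no value) and the distribution over all 16962 genes with a peak (gray bars, number of genes on a log axis). The upper panel shows peaks per library at the locus, in which all 10 genes are above 0, and the lower panel shows peaks at the locus per 10000 peaks of the library, in which S100A10 and S100P are above 0 and the other 8 below.

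S100A8-Flag and S100A9-Flag were compared by rearranging the libraries of each treatment between the proteins. No S100 gene differed, with 0 of 10 at an adjusted p of 0.05 and 0 of 10 at an unadjusted p of 0.05 (exact permutation test). Over all genes tested, 0% passed after adjustment and 0.495% before it. Averaged over the treatments, the differences S100A9-Flag minus S100A8-Flag ranged from -0.67 peaks at S100A11 to 0.33 at S100A4. At S100A2, S100A4, S100A10, S100A11, S100A13, and S100A14 they were negative in EtOH and positive in TAM, and partly cancel in this average. S100A13 had -1.33 in EtOH and 1.33 in TAM, and S100A2 had -1.83 and 0.67. S100A6, S100A7, S100A16, and S100P had no such opposite signs. With at most 3 libraries per condition this does not show that the proteins bound alike. Of the 53 sites at the S100 genes, 25 were called in at least 2 S100A8-Flag TAM libraries and 26 in at least 2 S100A9-Flag TAM libraries, and 21 sites were in both sets, which is 84.0% of the former and 80.8% of the latter. At these 21 sites the summits of an S100A8-Flag and an S100A9-Flag library were 31 bp apart in the median. These shares and this distance were not computed over the whole genome, so they cannot be read as particular to the S100 genes.

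Across the 53 sites, 31 were called in TAM libraries only, 20 in both treatments, and 2 in EtOH libraries only. Among the 31, 11 had a weaker peak in an EtOH list. The same split was not counted over the whole genome. No site was called in all 11 libraries, and 9 were called in all 6 TAM libraries, each of them also in 1 to 3 EtOH libraries. Over the whole genome, 4336 of 70990 sites were called in all 6 TAM libraries. Of the 33 sites called in at least 2 TAM libraries, 9 were also called in at least 2 EtOH libraries, or 27.3%, and over the whole genome this held for 9.65% of 37530 sites. With at least 1 EtOH library the shares were 57.6% at the S100 genes and 26.7% over the genome. These shares were not tested.

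Of the 30 S100 sites called in at least 2 libraries of a condition, 7 had an AP-1 motif, 4 a C/EBP motif, 2 each an ETS, a KLF/SP1, and a CTCF motif, 1 a STAT3 motif, and none a CREB motif within 50 bp of the summit. Over all 30338 such sites in the genome, 19.4% had AP-1, 9.74% C/EBP, 8.10% ETS, 5.63% KLF/SP1, 9.30% CTCF, 2.84% STAT3, and 0.768% CREB motifs. AP-1 motifs were rarer at promoter sites, 4.70% of 9441, than at the other 20897 sites, of which 26.0% had one. Among the S100 promoter sites described above, 1 of the S100A2 sites and that of S100A10 had an AP-1 motif.

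Other S100 genes and genes of S100 partner proteins were counted in the same way. Of 8 further S100 genes, S100A5 and S100A12 were higher in TAM at an adjusted p of 0.0465 (exact permutation test), 2 of 8 genes beside 21.5% of all genes tested. S100A5 lies between S100A6 and S100A4 and shares peaks with them. S100A12 had no peak in EtOH and 1 to 3 in TAM, so that it was among the genes tested only through its TAM peaks. S100B and S100G had no peak in any library. Of 11 partner genes, 8 were higher in TAM, beside the same 21.5% of all genes tested. These were ANXA2, ANXA11, AHNAK, CACYBP, MYH9, FGF1, IL1A, and EZR. IL1A had no peak in EtOH and 1 to 4 in TAM, and it too was tested only through its TAM peaks. When every protein-coding gene was tested, with or without a peak, no gene passed (smallest adjusted p = 0.0551, exact permutation test). The median difference was 2.00 peaks over the partner genes and 1.17 over all genes tested. A locus takes in the gene body, so that a long gene offers more room for peaks. The gene body spans 122694 bp at AHNAK, 106730 at MYH9, 105893 at FGF1, and 53628 to 55750 at EZR, ANXA11, and ANXA2. It spans 12864 bp at CACYBP and 10569 at IL1A. The longest of the 10 S100 genes, S100A11, spans 15402 bp. The part of gene length in these counts was not tested. ANXA2, the annexin that binds S100A10, had 0 to 3 peaks in EtOH and 5 to 10 in TAM, a mean difference of 6.08. MYH9, the nonmuscle myosin heavy chain bound by S100A4, had 0 to 2 in EtOH and 6 to 11 in TAM, a mean difference of 8.17. ANXA1, AGER, which encodes RAGE, and S100PBP did not pass. S100A8 and S100A9 were kept apart, since their coding sequences had been introduced into the cells: S100A8 had 0 to 2 peaks in EtOH and 3 to 4 in TAM, and S100A9 had 0 to 4 and 3 to 9. In EtOH, S100A8 had 2 and 1 peaks with S100A8-Flag and 0, 0, and 0 with S100A9-Flag. S100A9 had 1 and 0 with S100A8-Flag and 4, 3, and 3 with S100A9-Flag. Over both treatments the proteins differed at S100A9 with an unadjusted p of 0.03 (exact permutation test), which did not pass adjustment. The cause was not tested.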

How the data were processed

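Flag ChIP-seq peak lists of 11 libraries were analyzed. Pol II and input libraries were not analyzed here. The authors used Bowtie2 on the hg19 genome, retained unique alignments only, and ran MACS2 on each library with its own input as control, without pooling replicates. Tool versions are not given in the sources used here. The deposited fold enrichment is a ratio of summit signal to input, computed by the authors with MACS2. The deposited significance is the −log10 of the q value, and the lists reach down to a q of about 0.05. No counts of reads are given, so that depth and its precision are unknown.

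Summits of peaks with q ≤ 1e-07 were assigned to genes of GENCODE 44 (GRCh37), leaving out chromosome Y and unplaced sequences. The genes and lists were chosen with earlier results of these data known. Sites were peaks of the libraries merged at an overlap of at least 1 bp; described one by one were the promoter site of each gene called in the most libraries and any other site called in at least 8 libraries. The paper's count model could not be fitted without reads, so exact permutation tests (Python 3.11.15, numpy 2.4.6, pandas 2.3.3) were used, and they were tested on simulated data. P values measure only the spread between these replicates. At most 0.0462% of a library's peaks had the same coordinates in another library. The alternatives tried are given in the closing section.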

Additional observations from a re-analysis of the deposited data

Results flagged for a closer look

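The treatment difference at S100A4 was larger with S100A9-Flag than with S100A8-Flag. The number of S100A4 peaks was 2 and 2 in the S100A8-Flag EtOH libraries and 4, 2, and 4 in TAM, a difference of 1.33, and it was 0, 1, and 1 in the S100A9-Flag EtOH libraries and 3, 7, and 6 in TAM, a difference of 4.67. The difference of these differences was 3.33 peaks, with an unadjusted p of 0.03 in an exact permutation test that rearranged the proteins within each treatment. The adjusted p over all genes tested was 1, and 220 of the 16962 genes had an unadjusted p of at most 0.05, so that the result does not pass correction. Of the 32 S100A4 peaks, 24 were also counted at S100A6, where the same difference was -0.50 (unadjusted p = 0.76, exact permutation test). At S100A13 it was 2.67 (unadjusted p = 0.12, exact permutation test), and at S100A2 2.50 (unadjusted p = 0.26, exact permutation test). It was below 0 at S100A6, S100A7, and S100P and above 0 at the other S100 genes.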

How the results depend on the processing

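The number of the 10 S100 genes higher in TAM was 5, and it depended on the processing. It was 0 with q ≤ 1e-10, with equal numbers of top peaks, with every protein-coding gene tested, with summits in the gene body only, and per 10000 peaks of the library, 3 with every peak as deposited (23.8% of all genes), and 10 with summits within 50 kb (65.3% of all genes). It was 0 in each fit without 1 library (lowest 0, highest 0), since the smallest possible p then rises. At q ≤ 1e-10 and with every gene tested, all 10 differences kept their sign. Per 10000 peaks the differences turned negative at S100A2 (-4.57), S100A4 (-1.90), S100A6 (-3.08), S100A7 (-0.66), S100A11 (-1.56), S100A13 (-0.35), S100A14 (-0.46), and S100A16 (-0.25). With equal numbers of top peaks they turned negative at S100A2 (-0.083), S100A4 (-0.083), S100A7 (-0.17), S100A13 (-0.25), S100A14 (-0.33), and S100A16 (-0.33). The replicate block, which pairs same-numbered EtOH and TAM libraries of a protein, gave 0 genes, since its 32 arrangements allow no p below 0.0625; the correlations of same-numbered libraries, -0.020 to 0.061, gave no sign of pairing, and the labels do not say that a number marks a shared day. The promoter comparison and the comparison of the proteins gave 0 genes under every alternative run, the block included (range without 1 library, 0 to 0).

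The number of confident promoters was 3 in S100A8-Flag EtOH. It was 1 with q ≤ 1e-10, with equal top peaks, and at the 5′ end only, 6 with every peak, and 5 with at least 1 replicate. In S100A9-Flag EtOH it was 2. It was 0 with q ≤ 1e-10 and with every replicate required, 1 with equal top peaks, at the 5′ end only, and within 500 bp of a TSS, 6 with every peak, and 5 with at least 1 replicate. Without 1 library it ranged from 0 (without replicate 2 or replicate 3) to 2. With equal top peaks it was 4 in S100A8-Flag TAM and 3 in S100A9-Flag TAM, in place of 8 and 8, and without 1 library it was 6 to 7 and 7 to 8. S100A8-Flag EtOH has 2 libraries, so that none could be left out. The share of all protein-coding genes was not counted under these alternatives, so these numbers cannot be set beside it. The cause of these changes was not tested. The unknown read depth of the libraries limits every comparison between EtOH and TAM.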
